A study of Mus musculus with 576 samples.

Results

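The Hedgehog pathway genes described here are the ligands Shh and Ihh, the receptor Ptch1, the signal transducer Smo, the ligand-binding antagonist Hhip, the transcription factors Gli1, Gli2 and Gli3 and their inhibitor Sufu. They were chosen by symbol, and all 9 were found among the 36658 genes listed in the count tables of the 3 mouse lines. The data were Smart-seq2 libraries of single cells, a plate method that reads whole transcripts and counts no molecular identifiers. Dorsal pancreas was dissected at embryonic day 12.5 (E12.5), GFP-positive cells were sorted by flow cytometry into 96-well plates, and each line filled 2 plates.

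In the Prox1-GFP line, a Prox1 transgene drives GFP, so that cells with active Prox1 regulatory sequence were sorted, epithelial or not. In the Nkx2.5-Cre;mTmG and Nkx3.2-Cre;mTmG lines, a Cre recombinase under the named gene switches a membrane reporter from tomato to GFP, so that cells whose ancestors once had Cre activity stay green. The labels name no deletion and no treatment in any line, and whether the copy of a gene that carries Cre is intact was not examined. The labels name no embryo, litter or animal, so each line was 1 sample, its plates (6A and 6B for Nkx2.5-Cre, 7A and 7B for Nkx3.2-Cre, 8A and 8B for Prox1-GFP) were the only repeats, and no test between lines was possible. Line and plate cannot be told apart between lines, whereas cell classes of the Prox1-GFP line shared their plates.

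Of 576 cells, 549 passed the filters, with 224814 to 1512736 counts each. Clusters were made without the pathway genes and named by markers. The Prox1-GFP line held 86 epithelial-like cells (12 of 12 epithelial markers at 10 CPM, counts scaled to the same total in every group, or more), 17 endocrine-like cells (9 of 9 endocrine markers) and 79 mesenchymal-like cells. The Nkx3.2-Cre line held 92 and 76 mesenchymal-like cells on its plates and the Nkx2.5-Cre line 87 and 81, with 8 of 9 mesenchymal markers in every line, and 23 and 5 mesothelial-like cells. Of the Prox1-GFP mesenchymal-like cells, 2 carried at least 5 epithelial markers, and 7 of the Nkx3.2-Cre ones carried several erythroid markers.

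Hedgehog ligands are secreted proteins that bind Ptch1, which otherwise holds Smo inactive. Freed Smo acts through the primary cilium on Gli2 and Gli3, which are kept in check by Sufu and are processed to repressors when no ligand is present. Gli1, Ptch1 and Hhip are themselves induced by the signal and serve as its readouts, and Ptch1 and Hhip also trap ligand. In the embryonic gut, the epithelium makes Shh and Ihh and the surrounding mesenchyme responds, and the early pancreatic epithelium is known for lacking Shh beside neighbouring gut.

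Gli2 and Hhip differed in opposite directions in the class comparison below, and the 250 bases before their annotated starts (RefSeq, GRCm38.p6) are shown for that reason. The Gli2 stretch is chr1:119053620-119053869 and the Hhip stretch is chr8:80058009-80058258, both on the minus strand and written 5′ to 3′, with capitals marking each GC box (GGGCGG or its reverse complement CCGCCC).
Gli2: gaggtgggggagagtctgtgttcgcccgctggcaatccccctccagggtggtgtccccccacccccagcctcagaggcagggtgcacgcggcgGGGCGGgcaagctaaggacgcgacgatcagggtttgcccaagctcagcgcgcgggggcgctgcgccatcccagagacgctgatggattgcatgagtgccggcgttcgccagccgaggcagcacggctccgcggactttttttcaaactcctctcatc
Hhip: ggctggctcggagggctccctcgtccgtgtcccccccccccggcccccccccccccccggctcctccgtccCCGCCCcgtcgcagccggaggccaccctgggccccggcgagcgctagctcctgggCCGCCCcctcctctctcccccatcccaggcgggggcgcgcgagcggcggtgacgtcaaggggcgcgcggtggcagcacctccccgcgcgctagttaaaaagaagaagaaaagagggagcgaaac
The 9-base GLI consensus GACCACCCA, or TGGGTGGTC on the other strand, was in neither stretch, nor in any of the 7 members with a promoter entry, against 0.2253% of 32851 mouse promoters of this length. A GC box was in 6 of those 7 promoters and in 32.74% of all. Gli2 holds 1 box and Hhip 2. Such matches describe letters in these windows only.

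Ligand transcripts were almost absent from every cell class. Levels below are CPM of the counts summed over the cells of a class, with exact 95% Poisson intervals, and shares are cells with at least 1 count after each cell was thinned to 100000 counts, with exact 95% binomial intervals. Where no cell held a count, the limit given is 3 cells of the total, which lies below the upper end of the exact interval. All of these cover counting error only. Shh (chr5:28456815-28467256, minus strand, GRCm38) was at 0.564 CPM (0.405 to 0.765) in epithelial-like cells, 0.0773 on plate 8A and 1.12 on 8B. A single cell held 37 of those 41 counts, and 2 others held 3 and 1, so that Shh was seen in 3 of 86 cells before thinning and in 1 of 86 (1.16%, 0.0294 to 6.31) after it. Mesenchymal-like cells gave 1 Shh count in the Prox1-GFP line, 1 in the Nkx2.5-Cre line and 0 in the Nkx3.2-Cre line, which allows a share of up to 1.79% there. No Shh count was found in the 17 endocrine-like cells, which allows up to 17.6%.

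Ihh (chr1:74945315-74951672, minus strand) gave 3 counts in the whole dataset, all in 1 epithelial-like cell of plate 8B. The cells with a ligand count were checked for gut epithelium. Cdx2, a factor of intestinal epithelium, and Sox2, one of foregut and stomach epithelium, were at 0 in every cell with Shh or Ihh. The epithelial-like cell with 37 Shh counts had Epcam, an epithelial adhesion gene, at 1083 CPM and the pancreatic factor Pdx1 at 18.6 CPM. In the Ihh cell, Epcam was at 395 CPM and Pdx1 at 0. Dhh, the remaining ligand gene, was at 0.419 CPM or less in every class.

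**Figure D1:**
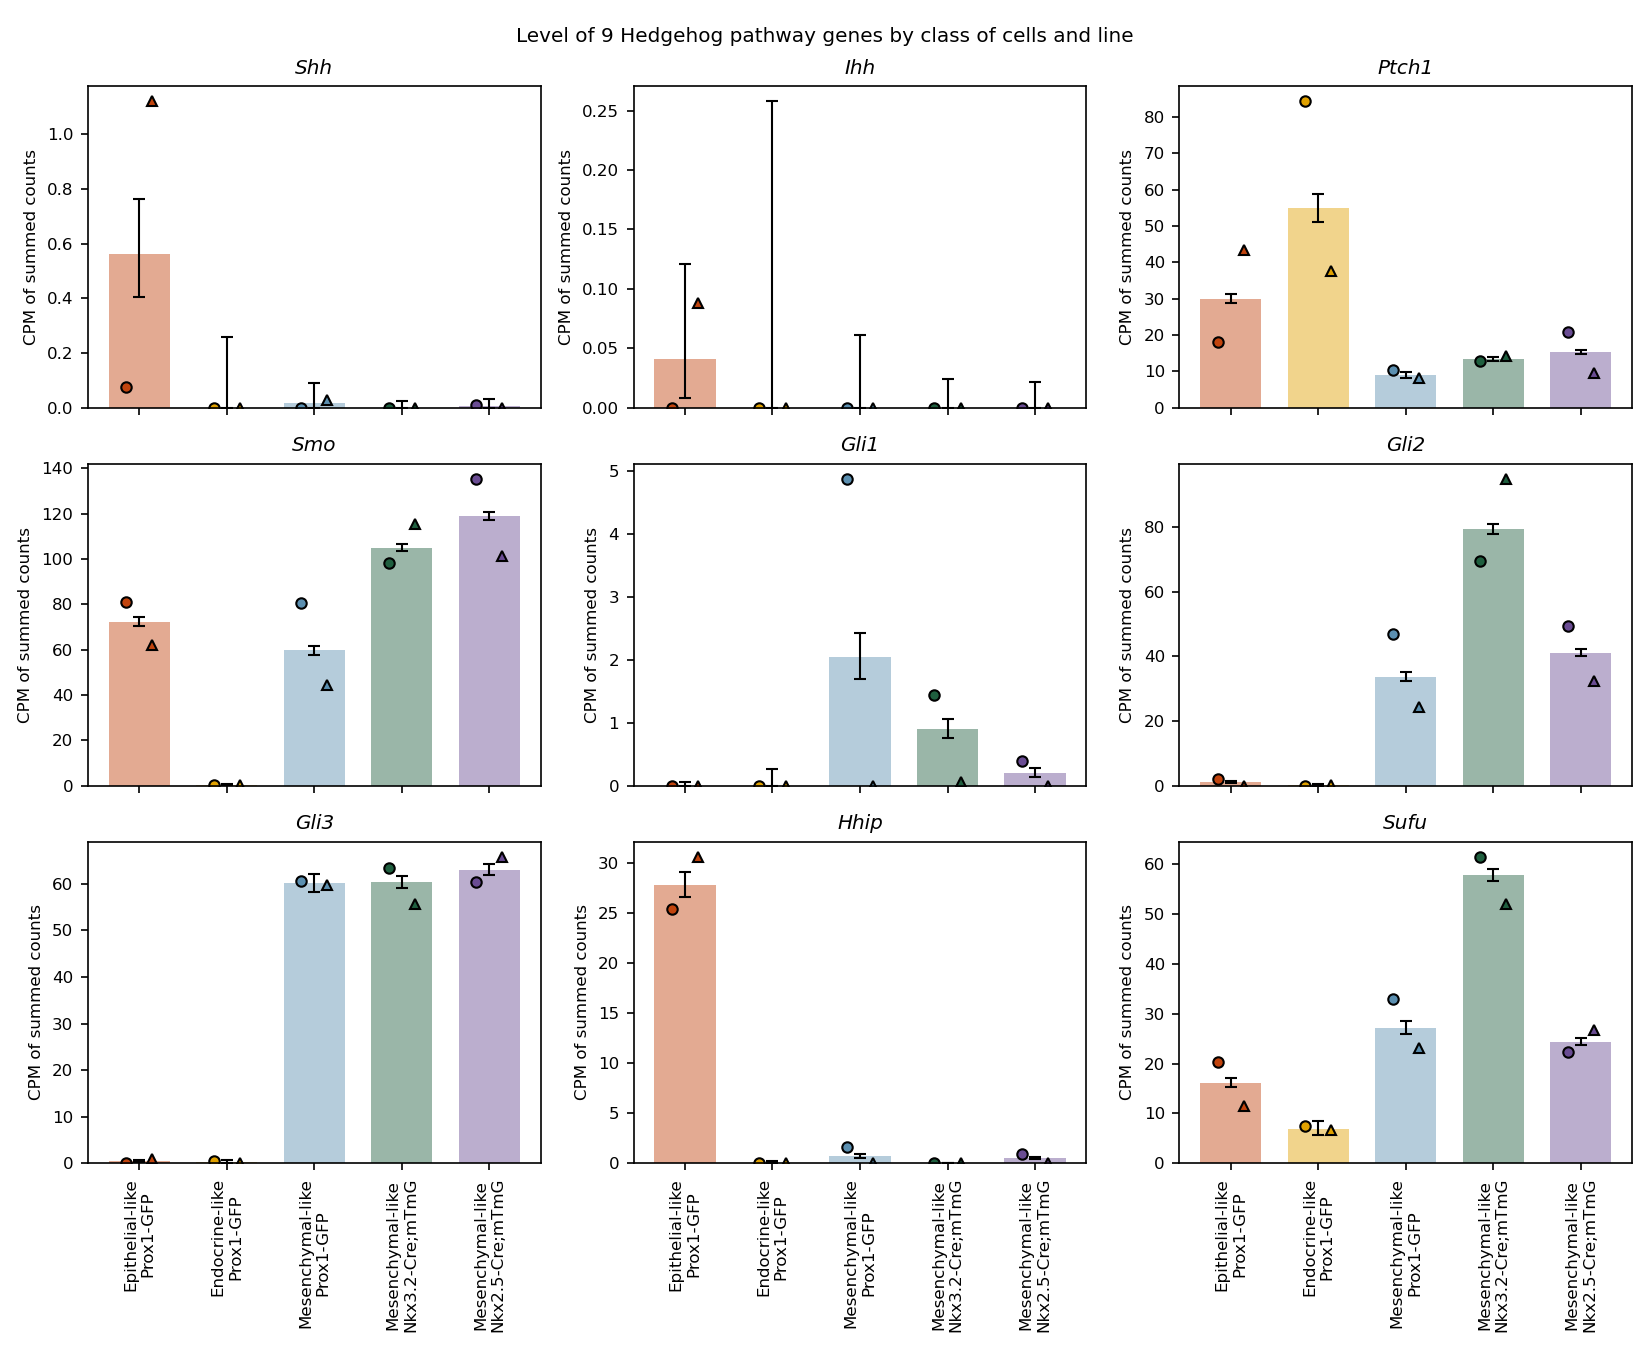
Level of each of the 9 genes (CPM of summed counts, a linear axis from 0 with its own range for each gene) in epithelial-like and endocrine-like cells of the Prox1-GFP line and mesenchymal-like cells of all 3 lines; bars are both plates together with exact 95% Poisson intervals, circles the first plate (A) and triangles the second (B). Shh and Ihh stay at 1.12 CPM or less and Gli1 at 4.87 or less, Hhip is at 25.4 and 30.6 CPM in epithelial-like cells against 1.66 or less in the other groups, and Gli2 and Gli3 lie between 24.2 and 94.8 CPM on every mesenchymal-like plate against 1.93 CPM or less on the epithelial-like ones.

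The ligand receptor was detected on both sides of the tissue, and within the Prox1-GFP line its level was higher in epithelial-like than in mesenchymal-like cells. Ptch1 (chr13:63508328-63573598, minus strand) was at 18.2 and 43.5 CPM in epithelial-like cells on plates 8A and 8B, and at 10.3 and 8.08 CPM in the mesenchymal-like cells of the same plates. A single cell gave 71.9% of the mesenchymal-like counts on 8A, and another gave 62.3% on 8B. The classes did not overlap between plates, and over both plates the mesenchymal-like level was 3.33-fold lower. The fold was 1.77 on 8A and 5.38 on 8B, so that Ptch1 did not reach the 2-fold difference on both plates that counts as called; on plate 8B alone it would be called lower. In cells, Ptch1 was found in 38 of 86 epithelial-like cells (44.2%, 33.5 to 55.3) and in 13 of 79 mesenchymal-like ones (16.5%, 9.06 to 26.5). Before thinning the shares were 60.5% and 24.1%, at median depths of 839829 and 781607 counts a cell.

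Endocrine-like cells had the highest Ptch1 level of any class, 54.9 CPM, with 84.3 on plate 8A (7 cells) and 37.7 on 8B (10 cells). A single cell gave 28.5% of those counts, and the 2 plates bracketed the epithelial-like value of plate 8B, so the order of these 2 classes is not separated. Mesothelial-like cells followed, at 19.6 CPM in the Nkx3.2-Cre line and 19.9 in the Nkx2.5-Cre line, the second from 1 of 5 cells. Among mesenchymal-like cells, Ptch1 was at 20.9 and 9.55 CPM on the Nkx2.5-Cre plates and at 12.96 and 14.1 CPM on the Nkx3.2-Cre plates. The ranges of these lines overlapped. Both Prox1-GFP plates, on each of which 1 cell gave most of the counts, lay below both Nkx3.2-Cre plates. The Nkx2.5-Cre plate 6A lay above the 18.2 CPM of the epithelial-like cells on plate 8A.

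Smo, the receptor-like protein that Ptch1 inhibits (chr6:29735503-29761365, plus strand), was the highest member per kilobase of longest transcript in the epithelial-like cells and in the mesenchymal-like cells of all 3 lines. That quantity was 19.1 CPM per kb in epithelial-like cells and 15.8, 27.8 and 31.5 in the mesenchymal-like cells of the Prox1-GFP, Nkx3.2-Cre and Nkx2.5-Cre lines. In plain CPM, Smo was at 81 and 62.2 in epithelial-like cells and at 80.7 and 44.4 in mesenchymal-like cells on plates 8A and 8B. The classes overlapped, and Smo was found in 51 of 86 and 39 of 79 cells. Of the values of Smo above 0, 74.5% were not whole numbers (Ptch1: 17.1%, the other members: 0), because the upstream tool split reads between transcripts; how the split affects the level was not tested.

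Smo was nearly absent from the endocrine-like cells. In all, 4 counts were found in 17 cells, 0.189 CPM on 8A and 0.332 on 8B, against 72.2 CPM in the epithelial-like cells, a 258-fold lower level. It was in 0 of 17 cells after thinning, which allows up to 17.6%, and in 3 of 17 before it. This class is sensitive to how it is drawn: with each cell classed by its own markers the difference was -3.04 on the log2 scale, and with coarser clustering, which moved 16 mesenchymal-like cells into the class, it was -1.26 and no longer called.

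Hhip, a membrane-anchored decoy that binds Hedgehog ligands (chr8:79965851-80058006, minus strand), was found almost entirely in the epithelium. It was at 25.4 and 30.6 CPM in epithelial-like cells and at 1.66 and 0 CPM in mesenchymal-like cells on plates 8A and 8B, a 40.02-fold lower level over both. The 42 mesenchymal-like counts came from 1 cell. Hhip was in 21 of 86 epithelial-like cells (24.4%, 15.8 to 34.9) and 22 before thinning, so deeper reading added 1 cell. In the lineage-labelled mesenchyme it was at 0 in every Nkx3.2-Cre cell and in 1 Nkx2.5-Cre cell (0.595%, 0.0151 to 3.27), which held 83 counts. In endocrine-like cells it was at 0, at least 132.7-fold lower than in epithelial-like cells, since 0 counts were set to 3 over the class.

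**Figure D2:**
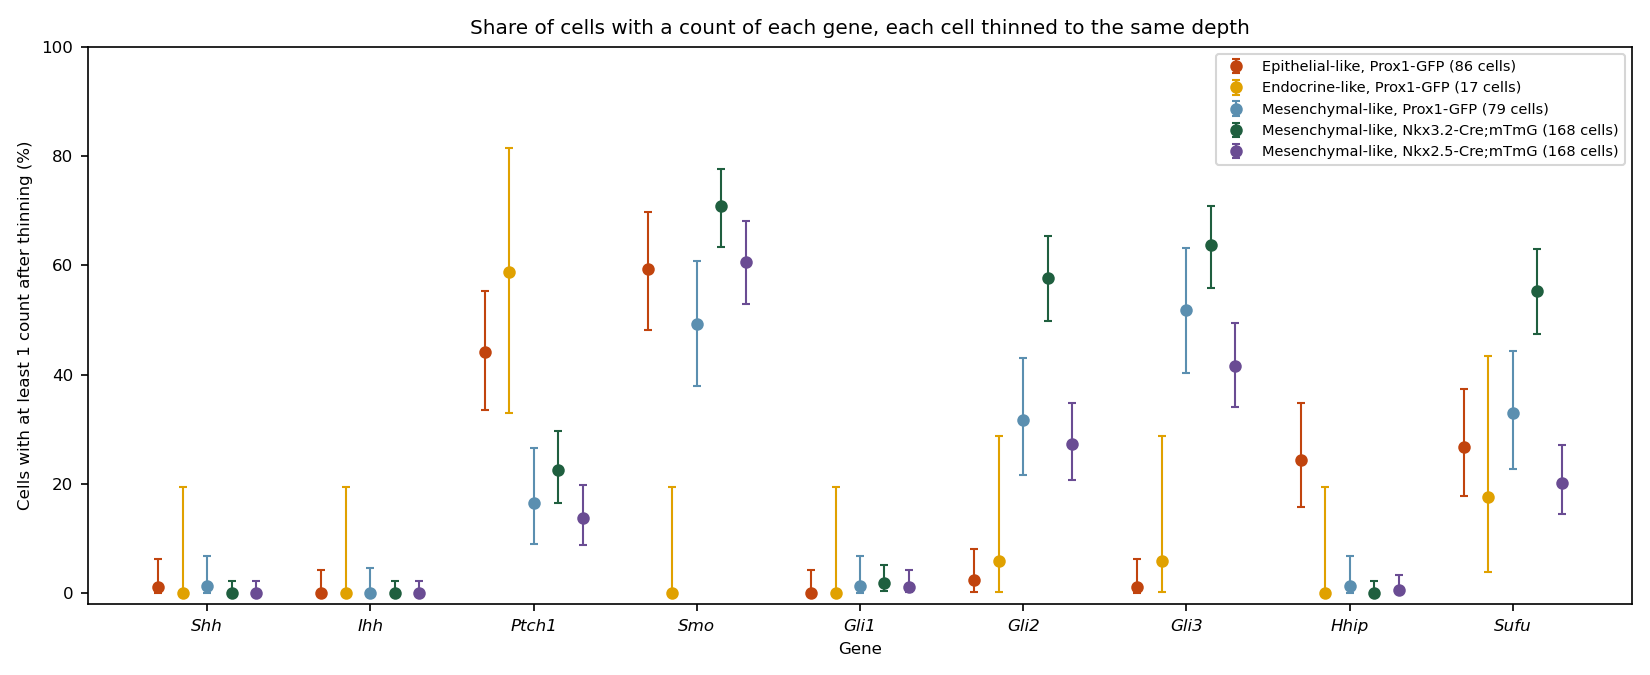
Percent of cells with at least 1 count of each gene after thinning to 100000 counts a cell, by class and line, with exact 95% binomial intervals. Ptch1 is in 44.2% and Hhip in 24.4% of epithelial-like cells, whereas Gli2 and Gli3 are in 57.7% and 63.7% of the mesenchymal-like cells of the Nkx3.2-Cre line.

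Gli1, the activator whose own transcription follows the signal (chr10:127329882-127341974, minus strand), was scarcely detected anywhere. It was at 0 in all epithelial-like and endocrine-like cells, which allows shares of up to 3.49% and 17.6%. In all, 8 of 549 cells held a count. They were 1 Prox1-GFP mesenchymal-like cell at 167.97 CPM, 4 Nkx3.2-Cre ones at 76.1, 49.7, 8.32 and 3.77, 2 Nkx2.5-Cre ones at 22.4 and 16.4, and 1 mesothelial-like cell at 27.4. The resulting levels of 2.04, 0.896 and 0.204 CPM in the mesenchymal-like cells of these lines therefore rest on 1 to 4 cells each and give no order of the lines. Without plate 8A, 7A or 6A, the share of cells with Gli1 after thinning became 0 in the respective line. Ptch1 was above 0 in 4 of the 8 cells with Gli1, at 328, 215, 68.4 and 23.1 CPM, and was 0 in the other 4.

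Gli2 and Gli3, the transcription factors that carry the signal first, were mesenchymal. Gli2 (chr1:118834132-119053619, minus strand) was at 46.99 and 24.2 CPM in mesenchymal-like cells and at 1.93 and 0 CPM in epithelial-like cells on plates 8A and 8B. The mesenchymal-like level was 32.7-fold higher over both plates, 24.3-fold on 8A and at least 273-fold on 8B. Gli2 was in 25 of 79 mesenchymal-like cells (31.6%, 21.6 to 43.1) and in 2 of 86 epithelial-like ones (2.33%, 0.283 to 8.15).

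Gli3 (chr13:15463235-15730026, plus strand) was at 60.6 and 59.9 CPM in mesenchymal-like cells and at 0.0516 and 0.944 CPM in epithelial-like cells of the same plates, 128.7-fold higher over both. Its summed level differed little between lines, at 60.2, 60.3 and 63.02 CPM in the Prox1-GFP, Nkx3.2-Cre and Nkx2.5-Cre mesenchymal-like cells. The plates ranged from 55.7 to 65.8 CPM. Within a line Gli3 varied more. In the Nkx2.5-Cre mesenchymal-like cells it was at 45.4 CPM in G1 and 82.2 in S or G2/M phase, and at 17.6 in cluster 4. Without cells in S or G2/M phase the lines moved apart, to log2 ratios of -0.49 for Nkx2.5-Cre against Nkx3.2-Cre and 0.75 for Prox1-GFP against Nkx2.5-Cre. Endocrine-like cells had 1 count of Gli2 and 3 of Gli3 in all. In the Nkx3.2-Cre line the mesothelial-like cells, 3 on plate 7A and 20 on 7B, had Gli2 at 120.4 and 119.5 CPM and Gli3 at 27.2 and 34.4 CPM. Gli2 was thus higher and Gli3 lower than in the mesenchymal-like cells of either plate. In the 5 Nkx2.5-Cre mesothelial-like cells Gli2 was at 1.79 CPM on plate 6A and 97.5 on 6B, and 44.7 over both, beside 41.2 in the mesenchymal-like cells of that line.

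Sufu, which binds Gli proteins and restrains them (chr19:46396896-46488804, plus strand), was at 20.3 and 11.4 CPM in epithelial-like cells and at 32.9 and 23.1 CPM in mesenchymal-like cells on plates 8A and 8B. The mesenchymal-like level was 1.68-fold higher, with 1.62-fold on 8A and 2.02-fold on 8B, and was not called. Per kilobase, Sufu stood at 3.57 CPM beside Hhip at 3.07 and Ptch1 at 2.89 in epithelial-like cells. In mesenchymal-like cells Ptch1 was lower than Smo, Sufu, Gli2 and Gli3 by this measure in all 3 lines, at 0.867 to 1.48 CPM per kb.

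For the class comparison within the Prox1-GFP line, a gene counted as called when it differed at least 2-fold the same way on both plates, among 14201 genes at 1 CPM or more in the mean of both classes. Of those genes, 11.7% were called higher and 12% lower in mesenchymal-like cells. Of the 9 members, 7 passed this filter, Gli2 and Gli3 were called higher and Hhip lower. Without plate 8A, Ptch1 (5.38-fold lower) and Sufu (2.02-fold higher) joined them, and without 8B Gli1 did, on the counts of its 1 cell. Here and below, a call with a plate left out needs fewer plates to agree. The share of all genes called that way was not counted.

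**Figure D3:**
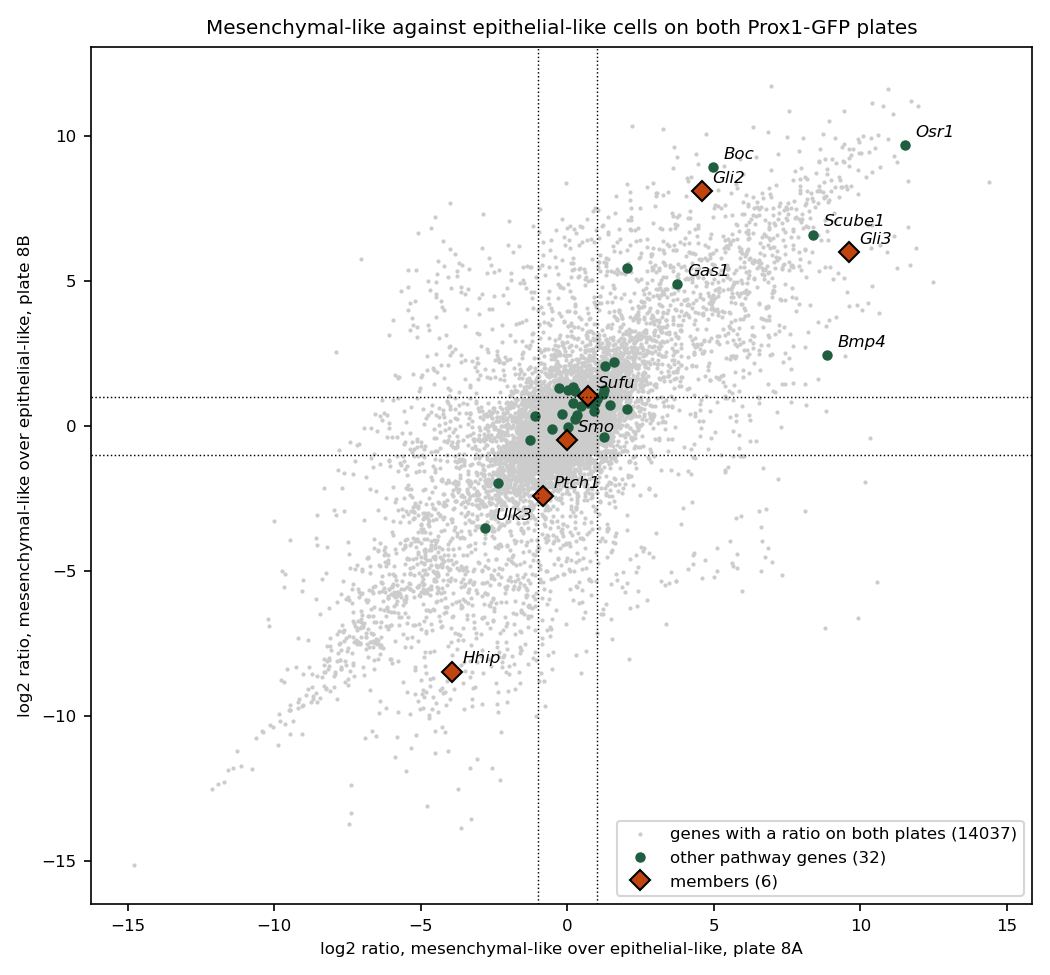
Log2 ratio of mesenchymal-like to epithelial-like cells of the Prox1-GFP line on plate 8A (x axis) and plate 8B (y axis), for 14037 genes with a ratio on both plates (grey), 6 members and 32 other pathway genes; a class under 3 counts is set to 3, and dotted lines mark a 2-fold difference. Gli2 and Gli3 lie far up on both axes and Hhip far down, Smo lies within the dotted lines on both plates, and Ptch1 (lower) and Sufu (higher) pass them on plate 8B only.

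Other genes of the pathway were taken from lists. Of 7 genes of ligand processing and release, 4 passed the filter. Beside 11.7% and 12% of all genes tested, 1 of those 4 was called higher in mesenchymal-like than epithelial-like cells and none lower. It was Scube1, which helps carry the lipid-modified ligand from the cell (49.6 against 0.348 CPM). Hhat, which adds palmitate to the ligand, was at 24.7 and 17 CPM in these classes and Disp1, which exports it, at 29.3 and 18.1. Scube2 was at 0.877 and 0.0550 CPM and Scube3 at 15.9 and 16.4.

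Of 6 other receptors and co-receptors, 4 passed the filter. Beside 11.7% of all genes tested, 3 of those 4 were called higher in mesenchymal-like cells. They were the ligand-binding co-receptors Boc (54.4 against 1.21 CPM), Gas1 (205 against 12.5) and Cdon (8.79 against 3.98). Gpc3, a glypican that binds ligand, was at 3090 against 1478 CPM but reached 2-fold on 1 plate only. Lrp2, an endocytic receptor, was at 0.447 and 1.16 CPM. The median log2 ratio of the 4 receptor genes that passed the filter was 2.59, beside 0.02 over all genes tested.

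Of 18 cilium genes and signal regulators, 3 were called higher in mesenchymal-like cells and 1 lower, shares near the 11.7% and 12% of all genes tested. Evc, which links Smo to the cilium, was at 19.5 against 9.19 CPM, Gpr161, a ciliary receptor that opposes the signal, at 13.4 against 4.00, and the kinase Stk36 at 11.1 against 4.88. The kinase Ulk3 was lower, at 2.07 against 18.8 CPM. The most abundant of this list, Csnk1a1 and Gsk3b, kinases that prepare Gli proteins for processing, were at 402 and 512 CPM against 338 and 394.

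Of 9 known targets in gut or other mesenchyme, 7 passed the filter. Of those 7, Foxf1, Bmp4 and Osr1 were called higher in mesenchymal-like cells and Ccnd1 lower, beside 11.7% and 12% of all genes tested. Osr1 was at 137.4 against 0.0275 CPM and Bmp4 at 21.9 against 1.03. Foxf1, the best known mesenchymal Hedgehog target of the gut, was at only 2.37 CPM, 0.317 on 8A and 3.84 on 8B, against 0.0138. In mesothelial-like cells it was at 15.8 CPM on plate 7A (3 cells) and 6.32 on 7B (20 cells). On 6A (3 cells) and 6B (2 cells) it was at 0 and 97.9 CPM. Foxf2 and Foxl1 were at 0.646 CPM or less in every class. Ccnd1, a cyclin of the G1 phase, was at 62.6 against 261 CPM, and Ccnd2 at 747 against 530. These genes have other inputs too. Of the 49 genes of all lists and members, 40 passed the filter, and 12 of those were called higher and 3 lower, beside 11.7% and 12% of all genes tested.

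The comparison of endocrine-like with epithelial-like cells was added after the data had been examined. Among 14422 genes, 13.7% were called higher and 17.8% lower in endocrine-like cells. Of the 9 members, 4 passed the filter. None was called higher, and Smo and Hhip were called lower. Ptch1 was 1.83-fold higher over both plates but 4.63-fold higher on 8A and 0.869 of the epithelial-like level on 8B. Without plate 8B, Ptch1 was called higher and Sufu lower, by 2.75-fold.

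Of 7 genes of ligand processing and release, 6 passed the filter. Beside 13.7% and 17.8% of all genes tested, 2 of those 6 were called higher and 1 lower. Disp2, a relative of the ligand exporter Disp1, stood out in the endocrine-like cells. It was at 265 CPM, 275 on 8A and 259 on 8B, against 0.0688 in epithelial-like cells. Scube1 was called higher, at 3.70 against 0.348 CPM, with only 2 counts on 8A. Scube3 was called lower, at 0.349 against 16.4 CPM. The co-receptors Cdon and Gas1 were at 0 in endocrine-like cells and at 3.98 and 12.5 CPM in epithelial-like ones, and Gpc3 was 7.35-fold lower. Of the cilium genes and regulators, 5 were called higher (Prkaca, Prkacb, Grk2, Stk36 and Tulp3) and 3 lower (Kif7, Evc and Gpr161) of 18, beside 13.7% and 17.8% of all genes tested. Prkacb, a catalytic subunit of protein kinase A, which primes Gli proteins for repression, was 4.63-fold higher, at 212 against 45.8 CPM. Ccnd1 was at 0.0699 against 261 CPM and Mycn at 0 against 86.9. Of the 17 endocrine-like cells, 11.8% were scored in S or G2/M phase, against 61.6% of the epithelial-like cells; the part of the cell cycle in these differences was not tested.

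Between the lines, no member was called in the mesenchymal-like cells. A call between lines required a 2-fold difference the same way in all 4 pairs of plates. For Nkx2.5-Cre against Nkx3.2-Cre, 1.89% of 13540 genes were called higher and 3.33% lower, and 5 members were tested. Sufu came closest. It was at 22.2 and 26.7 CPM on the Nkx2.5-Cre plates and at 61.4 and 51.9 CPM on the Nkx3.2-Cre plates, without overlap, 2.37-fold lower over both plates and 1.95- to 2.76-fold lower in the 4 pairs.

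Gli2 was at 49.5 and 32.2 CPM in the Nkx2.5-Cre line and at 69.5 and 94.8 in the Nkx3.2-Cre line, also without overlap, 1.93-fold lower over both plates and 1.40- to 2.94-fold lower in the pairs. Leaving out 1 plate at a time called Gli2 lower without 6A (log2 ratio -1.30) and Sufu lower without 6B (-1.38) or 7B (-1.33). Fewer pairs of plates had to agree in these calls. With each cell classed by its own markers both were called, at log2 ratios of -1.84 and -1.63. That setting kept only 89 Nkx2.5-Cre and 100 Nkx3.2-Cre cells as mesenchymal-like, so many of the cells compared above left the class. Without cells in S or G2/M phase Sufu was called, at -1.54. Smo and Ptch1 overlapped between these lines, at 1.13- and 1.15-fold.

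In cells, Sufu was in 55.4% (47.5 to 63) of the Nkx3.2-Cre mesenchymal-like cells and 20.2% (14.4 to 27.1) of the Nkx2.5-Cre ones, and Gli2 in 57.7% (49.9 to 65.3) and 27.4% (20.8 to 34.8). Gli3 was in 63.7% (55.9 to 70.96) and 41.7% (34.1 to 49.5) although its level in CPM differed by less than the spread of the plates. The median number of genes found in a cell was 7221 in the Nkx3.2-Cre and 5746 in the Nkx2.5-Cre mesenchymal-like cells, at median depths of 897271 and 1054465 counts. The part of this gap in the shares was not tested.

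For Prox1-GFP against Nkx3.2-Cre mesenchymal-like cells, 2.15% of 13702 genes were called higher and 3.01% lower, and none of 6 members tested was called. Gli2 was 2.35-fold lower in the Prox1-GFP line, 1.48- to 3.92-fold in the 4 pairs, and Sufu 2.12-fold lower, 1.58- to 2.66-fold. The plates of the lines did not overlap for either gene, nor for Smo, which was 1.76-fold lower. Plate 8B gave the larger differences: without plate 8A, Smo (log2 ratio -1.24), Gli2 (-1.71) and Sufu (-1.32) were all called lower, without 7A Gli2 was (-1.49), and without 8B Gli1 was called higher on its 1 cell.

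For Prox1-GFP against Nkx2.5-Cre cells, 2.62% of 13720 genes were called higher and 2.28% lower, and again no member of 6 tested. Gli2 and Sufu differed by 1.22- and 1.11-fold here, with overlapping plates. Smo was 1.995-fold lower over both plates, without overlap, 1.26- to 3.04-fold in the pairs, and Ptch1 1.71-fold lower. Without plate 6B Ptch1 was called lower (log2 ratio -1.21), without 8A Smo was (-1.42), and without 8B Gli1 was called higher. The 3 comparisons share their samples and are not independent of each other.

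Few other pathway genes were called between lines. Gsk3b was higher in Nkx2.5-Cre than in Nkx3.2-Cre mesenchymal-like cells (763 against 294 CPM, 2.59-fold). Ulk3 was lower in Prox1-GFP than in Nkx3.2-Cre cells (2.07 against 8.39 CPM), and Foxf1 higher in Prox1-GFP than in Nkx2.5-Cre cells (2.37 against 0.0233 CPM). The co-receptor Cdon was at 18.4 and 28.2 CPM on the Nkx2.5-Cre plates and at 9.34 and 8.81 on the Nkx3.2-Cre plates, 2.53-fold higher, and missed the call in 1 pair of plates. Bmp4 missed it in 1 pair too, at 12.1 and 22.96 CPM on the Nkx2.5-Cre plates and 55.9 and 39.7 on the Nkx3.2-Cre plates, 2.86-fold lower. Hhat and Boc (lower) and Foxf1 (higher) for Prox1-GFP against Nkx3.2-Cre, and Cdon and Scube2 (lower) for Prox1-GFP against Nkx2.5-Cre, likewise passed in 3 of 4 pairs. Of the values above 0, 98.9% for Gsk3b, 98.1% for Ulk3 and 79.7% for Bmp4 were not whole numbers, as for Smo, and the part of the split of reads in these differences was not tested.

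**Figure D4:**
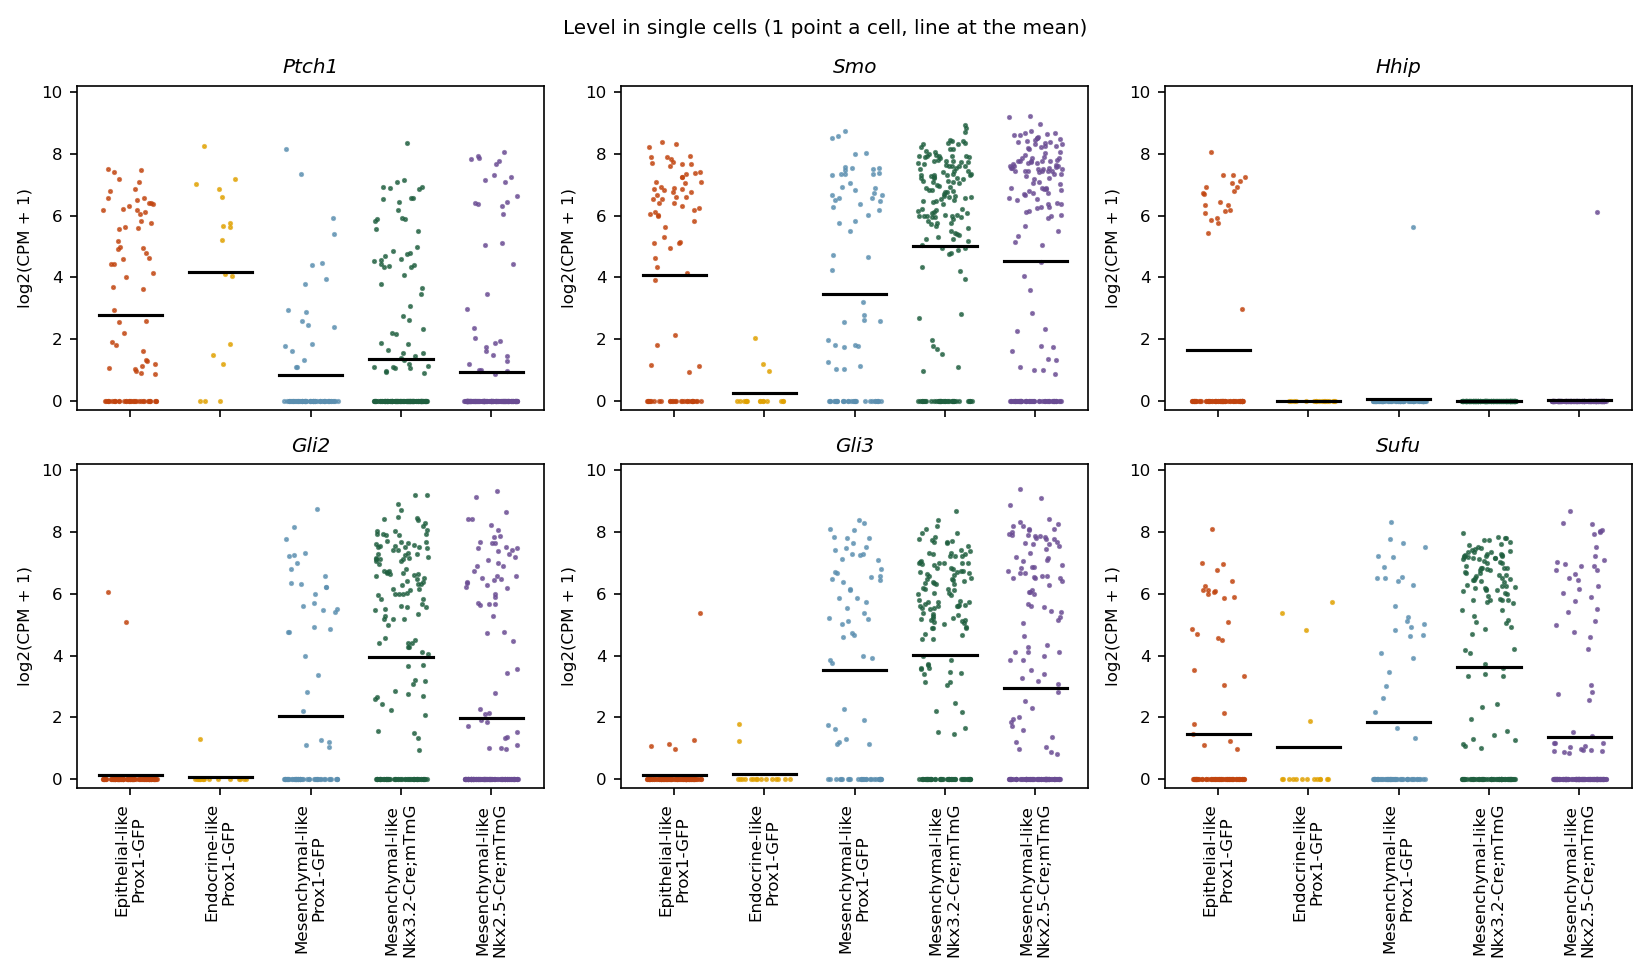
Level of Ptch1, Smo, Hhip, Gli2, Gli3 and Sufu in single cells, as log2(CPM + 1), by class and line; each point is a cell and the line is the mean. Many cells lie at 0 for every gene, the cells with Hhip are nearly all epithelial-like, and those with Gli2 or Gli3 nearly all mesenchymal-like.

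Within the mesenchyme, Ptch1 was lowest in the same cluster in all 3 lines. Cluster 5, led by Crtam, Hapln3 and Megf10, had Ptch1 at 0, 3.85 and 1.497 CPM in its Nkx2.5-Cre, Nkx3.2-Cre and Prox1-GFP cells. After thinning, Ptch1 was in 0 of 15, 1 of 21 and 1 of 12 of these cells. The other clusters with at least 10 cells of a line ranged from 4.40 to 19.9 CPM. In the cells of cluster 5, Smo was at 43.2 to 128.2 CPM, Gli3 at 55.7 to 69.2 and Sufu at 28.8 to 79.2. Cluster 5 was chosen for mention after its values were seen, and it is small.

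Cluster 4, led by Robo2 and Kazald1, held 3.07 CPM of Gli1 in its 43 Nkx3.2-Cre cells, from 2 cells. It had the highest Gli2 of any cluster in that line, 99.1 CPM, and the lowest Gli3 of any cluster in the Nkx2.5-Cre line, 17.6 CPM. Cluster 8, led by Gabrb1 and Zmat4 and mostly of Prox1-GFP cells, had Gli3 at 81.2 CPM and Gli2 at 20.3. In cluster 2, whose cells were all in S or G2/M phase, Sufu was at 6.92 CPM in the Nkx2.5-Cre cells and 69.3 in the Nkx3.2-Cre cells.

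**Figure D5:**
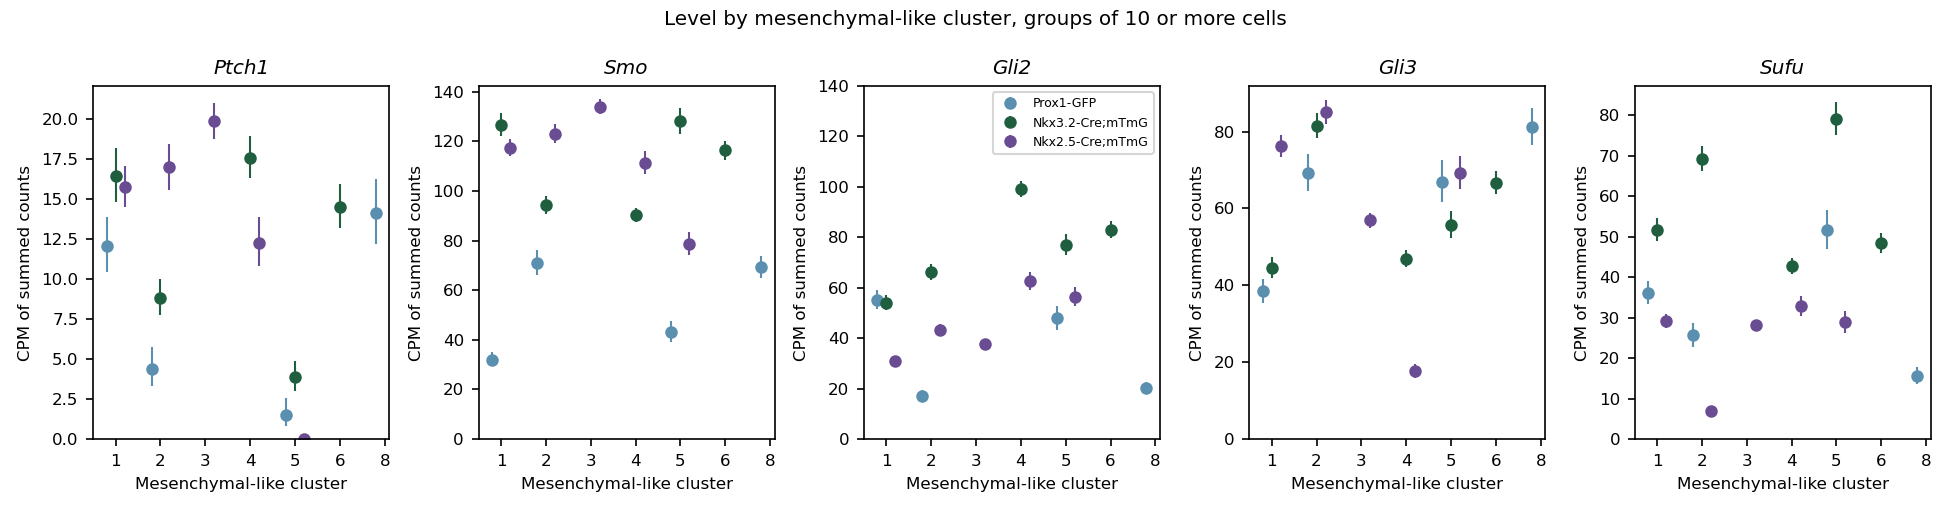
Level (CPM) of Ptch1, Smo, Gli2, Gli3 and Sufu in each mesenchymal-like cluster with at least 10 cells of a line, coloured by line, with exact 95% Poisson intervals. Ptch1 is lowest in cluster 5 in all 3 lines, and Sufu lies lower in the Nkx2.5-Cre than in the Nkx3.2-Cre cells of each cluster that both lines fill.

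By cell cycle phase, the level of Gli2 was higher in G1 than in S or G2/M phase in the mesenchymal-like cells of all 3 lines. It was at 45.5 and 22.9 CPM in the Prox1-GFP, 89.9 and 70.8 in the Nkx3.2-Cre and 42.3 and 39.96 in the Nkx2.5-Cre line, and no test was made. The shares of cells with Gli2 had no common direction. They were 10 of 38 in G1 and 15 of 41 in S or G2/M phase in the Prox1-GFP line. In the same order they were 48 of 78 and 49 of 90 in the Nkx3.2-Cre line and 21 of 86 and 25 of 82 in the Nkx2.5-Cre line. Gli3 and Ptch1 had no common direction. Gli3 was at 45.4 CPM in G1 and 82.2 in S or G2/M phase in Nkx2.5-Cre mesenchymal-like cells, but at 76.1 and 45.6 in the Prox1-GFP ones. Ptch1 was at 18.3 in G1 and 9.44 in S or G2/M phase in the Nkx3.2-Cre line, and at 13.1 and 17.9 in the Nkx2.5-Cre line. In epithelial-like cells, Smo was at 53.8 and 82.6 CPM.

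Whether the pairs of members given here were found together more or less often than apart was not tested. Of the 21 epithelial-like cells with Hhip, 8 also had Ptch1 (38.1%, 18.1 to 61.6), against 30 of the 65 without Hhip (46.2%, 33.7 to 59). Gli3 was in 15 of 25 Prox1-GFP mesenchymal-like cells with Gli2 and in 26 of 54 without it. The corresponding numbers were 61 of 97 and 46 of 71 in the Nkx3.2-Cre line and 47.8% and 39.3% of cells in the Nkx2.5-Cre line. All these intervals overlapped, which does not show that the shares are equal.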

How the data were processed

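Smart-seq2 libraries of 576 GFP-sorted cells from the dorsal pancreas at E12.5 were analysed. Per the labels, reads were trimmed with Trim Galore 0.6.5 and quantified with kallisto on GRCm38 (mm10), and the authors deposited estimated counts per gene and cell; 36.1% of values above 0 were not whole, and the gene annotation release is not given in the sources used here. The files are 1 table per line. The 9 members, the pathway lists and the markers were chosen with earlier results of these data known.

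The study's own limits on cells were applied: 1000 genes and 100000 counts as minimum, and a mitochondrial share no higher than 30%. Clusters (Seurat 5.3.0, R 4.3.3; 2000 variable genes without the pathway genes, 20 principal components, resolution 1.9) were named by their highest marker score, with mural clusters counted as mesenchymal-like. After the data were seen, 1 cell with at least 3 of 5 immune markers was left out. No doublet caller was run: cells were sorted 1 to a well. Counts were summed per class and plate and given as CPM; thinning used rounded counts. Cells are not replicates, so no p-value or standard error is given. Intervals cover counting error only, and reads without molecular identifiers are not independent molecules. Over both plates, a class at 0 counts was set to 3 for a fold, and no fold is given at 1 to 3 counts. For ratios on 1 plate, a class under 3 counts was set to 3, and the ratio is a bound. Lengths and coordinates are from GENCODE M21 (GRCm38), promoters from RefSeq. Named genes were all members, all genes of the ligand and receptor lists, and of the other lists those called in a comparison plus up to 4 of the highest level. Summing, calling and the Poisson interval were tested on simulated data (Python 3.11.15, numpy 2.4.6, scipy 1.17.1). The genes simulated for calling lay above the minimum level of a call, and thinning was not tested in this way. Alternatives were stricter cell filters, coarser clusters, classes by single-cell markers, other minimum levels, unthinned or higher counts for detection, and leaving out each plate.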

Additional observations from a re-analysis of the deposited data

How the results depend on the processing

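Of 212 alternatives to 25 log2 ratios of members, 29 moved a value by more than the spread between plates. Only a few of these ratios were called. They were Gli2, Gli3 and Hhip in mesenchymal-like cells and Smo and Hhip in endocrine-like cells, each against epithelial-like cells. None of the called ratios changed sign. Ratios that were not called changed sign in places (Ptch1, Smo, Gli2, Gli3 and Sufu between lines, and Ptch1 in endocrine-like cells without plate 8A). Smo in endocrine-like against epithelial-like cells was at -8.36 with stricter cell filters, -3.04 with classes by single-cell markers and -1.26 with coarser clusters, where Hhip was at -7.88. With classes by single-cell markers, Gli2 and Sufu for Nkx2.5-Cre against Nkx3.2-Cre were at -1.84 and -1.63 (2 members called). Ptch1 for Prox1-GFP against Nkx3.2-Cre was at -1.14 (1 called, Gli2). These classes held fewer mesenchymal-like cells than the clusters did, with 89 Nkx2.5-Cre, 100 Nkx3.2-Cre and 47 Prox1-GFP cells. Without cells in S or G2/M phase, Ptch1 and Sufu were at -0.48 and -1.54 for Nkx2.5-Cre and at -1.11 and -1.54 for Prox1-GFP, each against Nkx3.2-Cre, with 1 member called (Sufu) in each. Unthinned shares of cells with Ptch1 were 60.5% (epithelial-like) and 82.4% (endocrine-like).

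Leaving out 1 plate gave 4.60 to 8.10 for Gli2, 5.99 to 9.62 for Gli3 and 0.70 to 1.01 for Sufu in mesenchymal-like against epithelial-like cells, -7.55 to -7.15 for Smo and -6.53 to -5.48 for Hhip in endocrine-like cells, and -0.49 to 0.64 for Ptch1 between Nkx2.5-Cre and Nkx3.2-Cre. Of these, 8.10 for Gli2, 9.62 for Gli3, -7.15 for Smo and both Hhip values are bounds, from classes of 0 to 2 counts set to 3, and -7.55 for Smo rests on 3 counts. Members called ranged from 4 to 5, 2 to 4, 0 to 1, 0 to 3 and 0 to 1 in the comparisons in the order reported. Fewer pairs of plates had to agree in these calls. The share of all genes called was not counted with a plate left out or under the other choices of cells. Shares ranged from 0 to 2.70% for Shh and 34.7% to 56.8% for Ptch1 in epithelial-like cells, and for Gli1 from 0 to 2.86%, 3.26% and 2.30% in the Prox1-GFP, Nkx3.2-Cre and Nkx2.5-Cre mesenchyme. At a minimum of 10 CPM, pathway genes and members called were 11 (18 as reported) for endocrine-like cells and 0 for Prox1-GFP against either line; with no minimum they were 2 for Nkx2.5-Cre against Nkx3.2-Cre. The cause was not tested for any of these. No paired analysis was possible because no test was run; classes of the Prox1-GFP line were compared plate by plate. Genes seen in 1 to 4 cells, such as Shh, Ihh and Gli1, cannot be ranked between lines at this number of cells.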

Other observations

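Mesothelial-like cells, which line the outside of the organ, differed from the mesenchyme in co-receptors, in both directions. Lrp2, an endocytic receptor known to bind Shh, was at 29.9 CPM in the 23 Nkx3.2-Cre cells and 110 CPM in the 5 Nkx2.5-Cre cells, against 0.445 to 0.929 CPM in mesenchymal-like cells of the 3 lines. Cdon was at 35.7 and 115.6 CPM, against 8.79 to 23.1. Boc was at 124.4 CPM in the Nkx3.2-Cre mesothelial-like cells, beside 123.8 in that line's mesenchyme, and at 0 in the 5 Nkx2.5-Cre cells, beside 72.5. Gpc3 was lower, at 1974.5 and 1976.5 CPM against 3090 to 3230. Gli2 was in 19 of the 23 Nkx3.2-Cre cells (82.6%, 61.2 to 95). Scube1, at 49.6 CPM or more in mesenchymal-like cells, was at 0.173 and 0 CPM here. The plates differ in number of cells (3 and 20 of the Nkx3.2-Cre line), and no test was made.

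Epithelial-like cells were also split at the median level of Cpa1, an acinar and tip enzyme gene, a division chosen after the data were examined. Hhip was in 14 of 43 cells above the median and in 7 of 43 at or below it, with the same order on plate 8A (7 of 23 and 4 of 26) and 8B (7 of 20 and 3 of 17). Its level was 34.5 against 20.5 CPM. Ptch1 was in 19 of 43 cells on each side, at 30.6 and 29.3 CPM.

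The genes most like Ptch1 over mesenchymal-like cells were Trim11, Mier3, Rpp30 and Mpdz, with a lowest within-line Pearson r of 0.131, 0.128, 0.128 and 0.127 of log2(CPM + 1), among 8944 genes over the cells of each line, which share libraries and depth. Sufu, Smo, Gli2 and Gli3 took places 1468, 2216, 6380 and 8530. With Spearman's rho only 1 of the 5 leading genes, Mier3, was shared. The order for Gli1 was led by Gcfc2 and Ankrd12 and rests on 1 to 4 cells a line, and none was made for Hhip, which was at 0 in the Nkx3.2-Cre line. In sparse counts correlations this weak are no finding.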
